A study of Saccharomyces cerevisiae with 6 samples.

Results

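RNA polymerase I (Pol I) is the nuclear enzyme that transcribes the ribosomal DNA repeats into the precursor of the large ribosomal RNAs. The genes described here are 10 budding yeast genes of this enzyme and of its initiation factors, chosen by name: the subunit genes RPA190, RPA135, RPA49, RPA43, RPA34, RPA14 and RPA12, and the initiation factor genes RRN3, RRN6 and RRN7. They were chosen with earlier results of these data known. All 10 were among the 5449 genes tested, each on 1 probe set (a group of probes that together read 1 transcript). Their transcript levels were compared between wild type cells and npl3 deletion cells. Npl3 is an RNA-binding protein that travels with mRNA from its transcription to its export.

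The wild type strain was W303-1A bar1Δ and the deletion strain WNPL3B1-2B, both haploid of mating type a and in the W303 laboratory background. Both genotype labels carry the ura3-1, his3-11,15, trp1-1, can1-100 and ade2-1 alleles, the same leu2 allele and a BAR1 gene replaced by HphMX, and the deletion strain also carries npl3::KanMX. Cultures were in mid-log phase in rich glucose medium. Each group held 3 arrays, labelled as biological replicates of 1 strain, and 1 array was hybridised with the cRNA of 1 culture.

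Pol I works only in the nucleolus, and in growing yeast its product makes up most of the RNA of the cell. RPA190 and RPA135 form the catalytic centre, RPA43 and RPA14 form the stalk, RPA49 and RPA34 form a heterodimer related to general factors of RNA polymerase II (Pol II), and RPA12 takes part in RNA cleavage and termination. RRN3 binds the stalk and makes the enzyme competent for initiation, and RRN6 and RRN7, with RRN11, form the core factor that recruits it to the rDNA promoter. The upstream activating factor (UAF) and the TATA-binding protein complete the promoter complex.

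NPL3 itself, absent from the deletion strain per the labels, read 11.15 ± 0.35 in the wild type group against 3.96 ± 0.14 in the deletion group (log2 values as mean ± SD, n = 3 arrays per group). BAR1 read 0.86 to 1.35 on all arrays, under the approximate background level of 2.13. The a-specific genes MFA1, MFA2, STE2, STE6 and AGA2 read 8.74 to 11.21, the alpha-specific genes MF(ALPHA)1, MF(ALPHA)2 and STE3 read 2.98 to 4.53, and the alpha-agglutinin gene SAG1 read 7.20 to 7.93. Some of these mating-type markers differed between the genotypes. MFA1, MFA2, AGA2 and STE6 fell by 0.88, 0.62, 0.55 and 0.34, and STE2 was not called. MF(ALPHA)1 and MF(ALPHA)2 fell by 0.89 and 0.21, STE3 was not called and SAG1 rose by 0.48 (limma adjusted p = 0.00291). MF(ALPHA)1 and MF(ALPHA)2 gave low readings, 4.02 and 3.72 in wild type and 3.13 and 3.51 in the deletion. These are near or below the 3.96 of NPL3 in the deletion group, so their falls may not reflect their transcripts. Arrays correlated across genes with r of 0.996 to 0.998 within groups and 0.956 to 0.961 between them, where genes are not independent replicates. Control probe sets differed between the genotypes too. Spiked hybridization controls went from 9.31 ± 0.08 in wild type to 8.67 ± 0.60 in the deletion, a difference of -0.63, or -0.29 without npl3 deletion replicate 1. Labelling controls, found by probe set ID, went from 4.10 ± 0.12 to 4.80 ± 0.20 and were higher in the deletion on 12 of 12 probe sets. Their wild type reading was low, near that of the deleted NPL3 gene in the deletion group (3.96 ± 0.14). What part of their rise reflects labelling was not tested. In 8 of 8 yeast control genes the reading at the 5′ end, relative to that at the 3′ end, was greater in deletion cells, by a median of 0.37. The part of these differences, and of those of the mating-type markers, in the results that follow was not tested.

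RRN3 was the member that differed most between the genotypes. It stood about 2-fold higher in the deletion, with smaller rises in RPA12, RRN7, RPA43 and RPA49. The catalytic subunit genes RPA190 and RPA135 and the genes RPA34, RPA14 and RRN6 were not called. In limma's test, adjusted over all 5449 genes at a threshold of 0.05, 5 of the 10 members rose, 0 fell and 5 were not called, beside 61.8% of all genes called. The share of all genes that rose was 32.9%, and 28.9% fell. The members' median difference was 0.13 on the log2 scale, beside 0.01 over all genes, and 9 of 10 members had a difference above 0, as had 51.8% of all genes. The arrays of the groups did not overlap for 6 members, beside 68.8% of all genes. Only RRN3 among the members was called with at least a 1.5-fold change, beside 16.9% of all genes (8.28% of all genes rose that far). Without wild type replicate 3 the number of members called was 3, since RPA49 and RPA43 were no longer called.

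**Figure D1:**
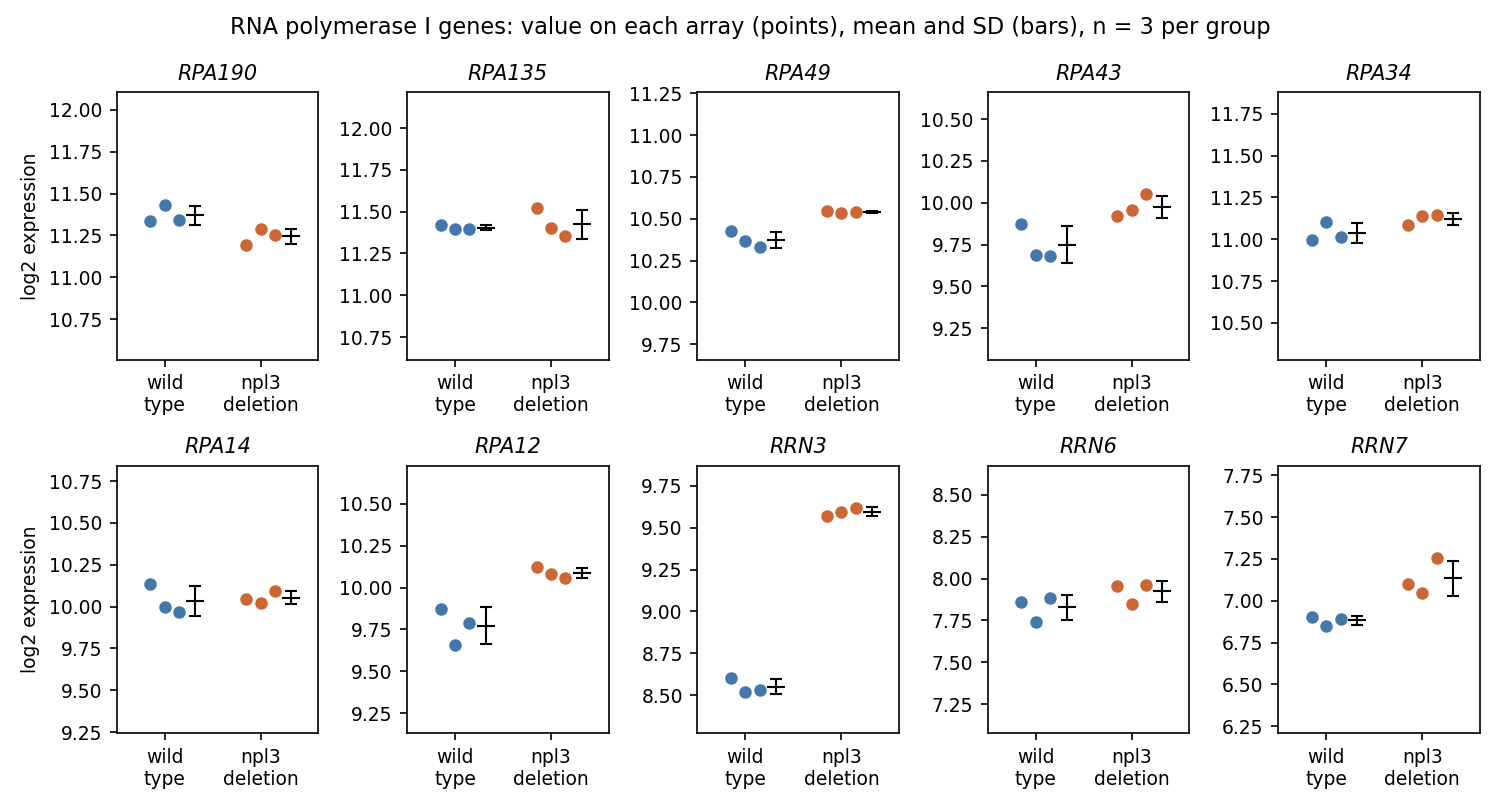
Log2 expression of the 10 RNA polymerase I genes on each of 6 arrays, in panels of equal height; points are arrays, and black bars are the mean and SD of 3 arrays. RRN3 moves from about 8.55 to 9.60 with no overlap, while the arrays of both genotypes lie close together for RPA135, RPA34, RPA14 and RRN6.

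RRN3 (YKL125W, chromosome XI) read 8.60, 8.52 and 8.53 on the wild type arrays and 9.57, 9.60 and 9.62 on the deletion arrays. Every deletion array lay far above every wild type array, and the SD was 0.04 and 0.03 in the groups. The rise was 1.05 (SE 0.05, 95% interval 0.94 to 1.15, limma adjusted p = 1.97e-06), a fold of 2.07. This interval lay above that of every other member, of which the highest reached 0.46 (RPA12). Of all genes tested, 140 had a larger rise. When single arrays were left out, the rise of RRN3 was 1.03 to 1.07.

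The core factor genes RRN6 and RRN7 moved less. RRN7 (YJL025W, chromosome X), the subunit related to the Pol II factor TFIIB, read 6.90, 6.85 and 6.89 in wild type and 7.10, 7.05 and 7.25 in the deletion. The groups did not overlap, and the rise was 0.25 (SE 0.06, limma adjusted p = 0.00908). RRN6 (YBL014C, chromosome II) read 7.86, 7.74 and 7.88 in wild type and 7.96, 7.85 and 7.96 in the deletion. Its groups overlapped, and the difference of 0.10 did not pass the test (95% interval -0.04 to 0.23, limma adjusted p = 0.189). It was 0.05 without wild type replicate 2.

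The genes of the catalytic centre were not called. RPA190 (YOR341W, chromosome XV), the largest subunit, read 11.33, 11.43 and 11.34 in wild type and 11.20, 11.29 and 11.25 in the deletion. It was the only member with a mean below that of wild type, and its groups did not overlap, but the difference of -0.13 did not pass the test (SE 0.05, 95% interval -0.24 to -0.01, limma adjusted p = 0.0639). It passed under 3 of 17 alternatives, and those 3 are named in the closing section. The 17 include the same fit at an adjusted p of 0.01, which could not call it. They also include probe set rules that change little for a gene read on 1 probe set. RPA135 (YPR010C, chromosome XVI), the second-largest subunit, read 11.42, 11.40 and 11.40 in wild type and 11.52, 11.40 and 11.35 in the deletion. Its wild type arrays lay within the range of the deletion arrays, and the difference was 0.02 (95% interval -0.11 to 0.15, limma adjusted p = 0.767), or -0.03 without npl3 deletion replicate 1.

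Of the stalk genes, RPA43 rose and RPA14 was not called. RPA43 (YOR340C, chromosome XV), the subunit that RRN3 contacts, read 9.88, 9.69 and 9.68 in wild type and 9.92, 9.96 and 10.05 in the deletion. Wild type replicate 1 lay close below the lowest deletion array, without overlap. The rise was 0.23 (SE 0.07, limma adjusted p = 0.0212), and it was not called without wild type replicate 2 (adjusted p = 0.0667), wild type replicate 3 (adjusted p = 0.0715) or npl3 deletion replicate 3 (adjusted p = 0.0748) in the same limma test. RPA14 (YDR156W, chromosome IV) read 10.13, 9.996 and 9.97 in wild type and 10.05, 10.02 and 10.10 in the deletion. All its deletion arrays lay within the wild type range, and the difference was 0.02 (95% interval -0.11 to 0.16, limma adjusted p = 0.760), with the sign turned under quantile normalization (-0.01) and without wild type replicate 3 (-0.01).

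The heterodimer genes showed small differences. RPA49 (YNL248C, chromosome XIV) read 10.43, 10.36 and 10.33 in wild type and 10.55, 10.53 and 10.54 in the deletion. The groups did not overlap, and the rise was 0.17 (SE 0.05, limma adjusted p = 0.0145), with adjusted p = 0.0585 without wild type replicate 3. RPA34 (YJL148W, chromosome X) read 10.99, 11.11 and 11.01 in wild type and 11.08, 11.14 and 11.15 in the deletion. Its groups overlapped, and the difference of 0.09 did not pass the test (95% interval -0.03 to 0.20, limma adjusted p = 0.171).

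RPA12 (YJR063W, chromosome X) had the largest rise among the subunit members. It read 9.87, 9.66 and 9.79 in wild type and 10.12, 10.08 and 10.06 in the deletion. The wild type arrays spread more than the deletion arrays but stayed below all of them. The rise was 0.31 (SE 0.06, 95% interval 0.17 to 0.46, limma adjusted p = 0.00343), and 0.26 to 0.37 when single arrays were left out.

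**Figure D2:**
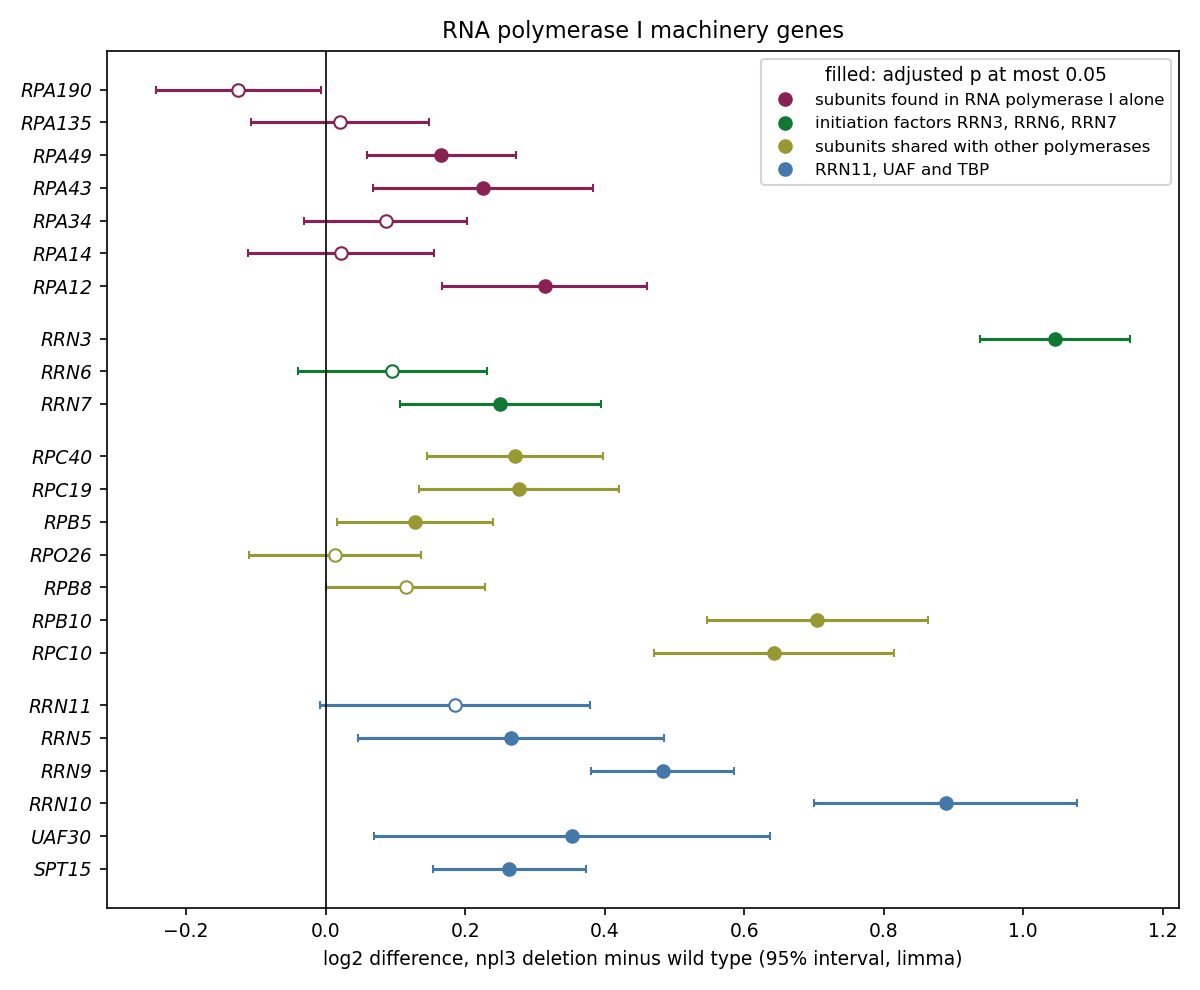
Log2 difference (npl3 deletion minus wild type, 3 arrays each) with its 95% interval from limma for 23 genes of the RNA polymerase I machinery, coloured by role; filled points passed an adjusted p of 0.05. RRN3 (1.05), RRN10 (0.89), RPB10 (0.70) and RPC10 (0.64) lie farthest to the right, and RPA190 (-0.13) alone lies left of 0.

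The rest of the Pol I machinery is encoded by genes outside the 10 members. Of the 7 genes for subunits shared with other polymerases, 5 rose, 0 fell and 2 were not called. Their median difference was 0.27, while 32.9% of all genes rose and 28.9% fell. The largest rises of this list were those of RPB10 and RPC10, the small subunits found in all nuclear RNA polymerases. RPB10 read 10.55, 10.40 and 10.44 in wild type and 11.06, 11.21 and 11.25 in the deletion, a rise of 0.70 (SE 0.07, limma adjusted p = 8.08e-05). RPC10 rose by 0.64 (SE 0.07, limma adjusted p = 0.000199), from 10.31 ± 0.12 to 10.95 ± 0.08 (n = 3 arrays each). In both genes all deletion arrays lay above all wild type arrays. RPC40 and RPC19, which form the assembly platform of Pol I and RNA polymerase III (Pol III), rose by 0.27 (limma adjusted p = 0.00335) and 0.28 (limma adjusted p = 0.00545). RPB5 rose by 0.13 (limma adjusted p = 0.0492), with an adjusted p of 0.0353 to 0.146 in the 6 fits that left out an array, and it was called in 1 of them, that without wild type replicate 1. Its call also ended under quantile normalization (limma adjusted p = 0.0595) and median centring (limma adjusted p = 0.0511). RPB8 and RPO26 were not called, at 0.11 and 0.01. RPO26 is a gene with an intron, and the values do not tell spliced from unspliced RNA.

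Of the 6 genes of RRN11, UAF and the TATA-binding protein, 5 rose, 0 fell and 1 was not called. Their median difference was 0.31, while 32.9% of all genes rose and 28.9% fell. RRN10, a small UAF subunit, read 6.84, 6.71 and 6.66 in wild type and 7.78, 7.52 and 7.58 in the deletion. Its groups lay apart, and the rise of 0.89 (SE 0.08, limma adjusted p = 5.93e-05) was the second-largest among the 23 genes of the Pol I machinery. RRN9, another UAF subunit, rose by 0.48 (SE 0.04, limma adjusted p = 6.08e-05), from 8.20 ± 0.02 to 8.68 ± 0.03 (n = 3 arrays each). The UAF genes UAF30 and RRN5 rose by 0.35 (limma adjusted p = 0.0363) and 0.27 (limma adjusted p = 0.0400). UAF30 differed by 0.20 without wild type replicate 2, which read 5.96 against 6.48 and 6.35 on the other wild type arrays, and was not called without npl3 deletion replicate 1, 2 or 3 (adjusted p = 0.0617 to 0.1). RRN5 was called in 1 of the 6 fits that left out an array, that without wild type replicate 2, where its adjusted p was 0.00549, and had 0.0524 to 0.123 in the others. RRN11, the remaining core factor gene, differed by 0.19 (limma adjusted p = 0.0858), with adjusted p = 0.0283 without wild type replicate 1 and 0.0287 without npl3 deletion replicate 2. The number of genes of this list that rose was 3 without npl3 deletion replicate 1 and without npl3 deletion replicate 3.

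SPT15, which encodes the TATA-binding protein used by all nuclear polymerases, was read by several probe sets. On the probe set that stood for it among the genes it rose by 0.26 (SE 0.05, limma adjusted p = 0.00188). Control probe sets named for its 5′ end, middle and 3′ end differed by 0.53, 0.30 and 0.11, each without overlap (p = 0.1 in an exact two-sided permutation test of each, which is the lower limit with 3 arrays against 3). The range of these differences along 1 transcript, from 0.11 to 0.53, was wider than the difference of each member except RRN3, the called members RPA12, RRN7, RPA43 and RPA49 included. Across the 8 yeast control genes the 5′ reading, relative to the 3′ reading, rose by 0.24 (RIP1) to 1.42 (SRB4). The rise of RRN3, 1.05, was read on 1 probe set and is not a measure of the same kind as these contrasts. The part of such shifts in the members' differences was not tested.

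The array also carries control probe sets named for the mature rRNAs that Pol I makes. The 5′ probe set for 18S rRNA read 12.10, 12.95 and 12.95 in wild type and 11.71, 11.70 and 11.64 in the deletion, a difference of -0.98 without overlap. The 3′ probe set for 18S rRNA read 11.73 ± 0.22 and 11.72 ± 0.16 (n = 3 arrays each), with overlap. For 25S rRNA the differences were -1.15 at the 5′ end, -0.85 in the middle and -0.21 at the 3′ end, each without overlap. The 5.8S probe set differed by -0.50, with overlap. Exact two-sided permutation p-values were 0.1 for the 4 rRNA probe sets without overlap, 1.0 for 18S 3′ and 0.2 for 5.8S. Wild type replicate 1 was the lowest wild type array on each rRNA probe set. The standard labelling protocol primes from poly(A) tails, so these readings are not measures of total rRNA. Relative to the 3′ end, the 5′ end of 18S and 25S rRNA read lower in the deletion, where that of the mRNA controls read higher.

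**Figure D3:**
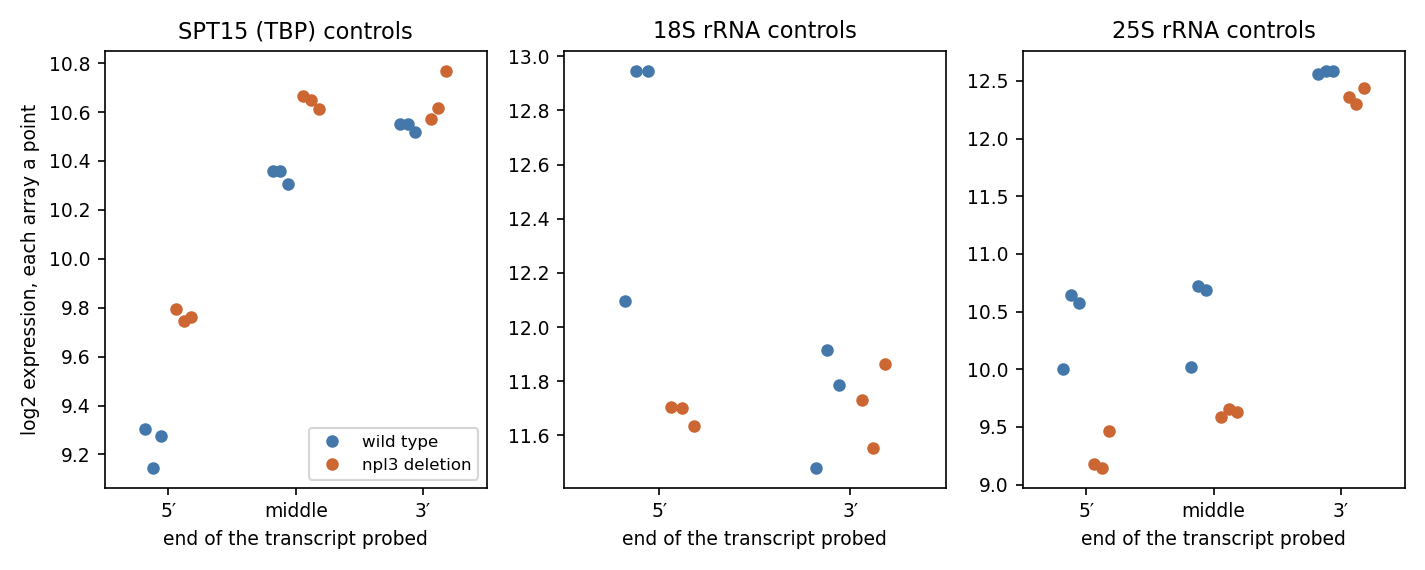
Log2 expression on each array (points) of the control probe sets for SPT15, 18S rRNA and 25S rRNA, by the end of the transcript they read; vertical scales differ between panels. SPT15 is higher in the deletion at each position, by 0.53 at the 5′ end and 0.11 at the 3′ end, and 25S rRNA is lower, with differences of -1.15 at the 5′ end and -0.21 at the 3′ end.

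Subunit genes of the other nuclear polymerases were read beside those of Pol I. Of the 10 genes of Pol III subunits, 6 rose, 2 fell and 2 were not called. Their median was 0.18, while 32.9% of all genes rose and 28.9% fell. RPC11, the Pol III counterpart of RPA12, rose by 0.80 (SE 0.06, limma adjusted p = 3.26e-05) and RPC37 by 0.23 (limma adjusted p = 0.0139; 0.0522 without npl3 deletion replicate 3). RPO31, the largest Pol III subunit, fell by 0.19 (limma adjusted p = 0.0128). RPC82 fell by 0.20 (limma adjusted p = 0.0335) and was called in 2 of the 6 fits that left out an array, those without wild type replicate 3 and npl3 deletion replicate 3.

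Of the 7 genes of subunits found in Pol II alone, 3 rose, 1 fell and 3 were not called. Their median was -0.002, while 32.9% of all genes rose and 28.9% fell. RPB9, the Pol II counterpart of RPA12, rose by 0.41 (SE 0.05, limma adjusted p = 0.000217), RPB11 by 0.26 (limma adjusted p = 0.00344) and RPB4 by 0.22 (limma adjusted p = 0.0114). The stalk gene RPB7 fell by 0.20 (limma adjusted p = 0.00966). RPO21, the largest Pol II subunit, differed by -0.36 (limma adjusted p = 0.0857), by -0.55 without wild type replicate 1 (limma adjusted p = 0.00270) and by -0.18 without wild type replicate 2. Without wild type replicate 1 the number of Pol II subunit genes that fell was 2, RPO21 and RPB7. The same 2 genes fell with array weights (RPO21 at -0.40, limma adjusted p = 0.0244). They also fell without the dimmest genes, those in the lowest 0.25 by mean (RPO21 limma adjusted p = 0.0463). RPB2 and RPB3 differed by -0.002 and -0.02.

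The subunit genes of the 3 polymerases, 31 in all, were then set against gene length, in classes chosen after the values were seen and without a test. Of the 9 subunit genes shorter than 450 nucleotides, 7 rose and 0 fell, with a median difference of 0.31. All 530 genes of that length had a median of 0.19, and 49.6% rose while 84 genes fell. RPA12 (378 nucleotides) and RPA14 (414 nucleotides) are the Pol I members in this class, with differences of 0.31 and 0.02. Of the 6 longer than 3000 nucleotides, 1 rose and 1 fell while 4 were not called, and their median was -0.06. All 461 genes of that length had a median of -0.04, and 25.6% rose while 137 genes fell. Among the 6 are RPA190 (4995 nucleotides) and RPA135 (3612 nucleotides). Of the 16 subunit genes of 450 to 3000 nucleotides, among them RPA34, RPA43 and RPA49, 9 rose, 2 fell and 5 were not called. Their median was 0.15, beside 0.003 for all 4458 genes of that length. Of those 4458, 31.7% rose and 1355 genes fell. Across the 31 genes Spearman's rho of length and difference was -0.64, across the 7 Pol I subunit members -0.68, across all 10 members -0.38 and across all 5449 genes -0.18. These are descriptions across genes read on the same 6 arrays. RRN3 (1884 nucleotides) encodes no subunit and is of middle length. Its difference of 1.05 stands beside that same median of 0.003.

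**Figure D4:**
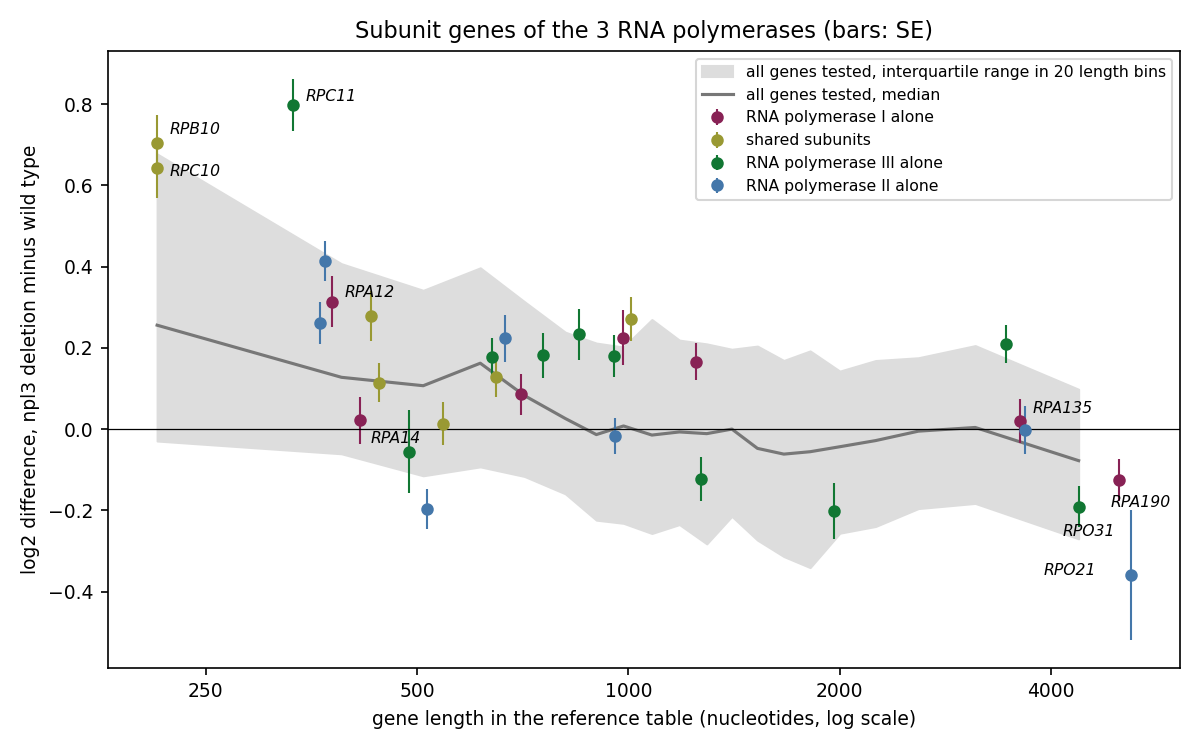
Log2 difference (npl3 deletion minus wild type, bars SE) of 31 subunit genes of RNA polymerases I, II and III against gene length on a log scale, with the median and interquartile range of all 5449 genes in 20 length bins in grey. RPC11, RPB10 and RPC10 lie at 0.64 to 0.80 among the shortest genes, and RPO21, RPO31 and RPA190 lie below 0 among the longest.

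Genes that act on the rDNA or regulate ribosome synthesis moved both ways. Of 12 rDNA chromatin and nucleolar factor genes, 3 rose, 3 fell and 6 were not called. Their median was 0.05, while 32.9% of all genes rose and 28.9% fell. TOP1, the topoisomerase that relaxes transcribed rDNA, rose by 0.39 (limma adjusted p = 0.000447) and NSI1, an rDNA-binding protein that terminates Pol I, by 0.33 (limma adjusted p = 0.00377). SIR2, the deacetylase that silences the rDNA, fell by 0.55 (limma adjusted p = 0.00512), and REB1, an rDNA-binding relative of NSI1, fell by 0.49 (limma adjusted p = 0.000554). Of 9 Pol III factor genes, 1 rose, 3 fell and 5 were not called, beside the same shares over all genes. The riser was TFC3 (0.65, limma adjusted p = 7.33e-05), the only one of the 9 on chromosome I. A fit without the 90 tested genes of that chromosome called 3287 genes, beside 3369 with them. Whether the rise of TFC3 goes with its chromosome was not tested. TFC6 (-0.31, limma adjusted p = 0.0167) and TFC1 (-0.12, limma adjusted p = 0.0494) had the largest falls of this list. With each array left out in turn, 0 to 1 of these 9 genes fell, 2 rose without wild type replicate 2, and TFC1 was called in 0 of the 6 fits (adjusted p = 0.0664 to 0.142).

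Of 11 growth regulators of ribosome genes, 1 rose, 3 fell and 7 were not called. Their median was -0.13, while 32.9% of all genes rose and 28.9% fell. KOG1, a subunit of the TOR complex, rose by 0.18 (limma adjusted p = 0.00930). TOR1, another gene of that complex, was among those that fell (-0.30, limma adjusted p = 0.00358). DOT6, a repressor of ribosome biogenesis genes, fell by 0.60 (SE 0.09, limma adjusted p = 0.000938). CRF1, a corepressor of ribosomal protein genes, fell by 0.94 (SE 0.10, limma adjusted p = 0.000156) from 3.94 ± 0.21 to 3.00 ± 0.08 (n = 3 arrays each), without overlap. These are low readings, near that of the deleted NPL3 gene in the deletion group (3.96 ± 0.14). They are also near those of the alpha-specific genes other than SAG1 (2.98 to 4.53), so the fall of CRF1 may not reflect its transcript. Without wild type replicate 1, 2 or 3, the number of regulators that rose was 2.

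The mean of the 10 members, each centred on its own mean over the 6 arrays, was -0.06, -0.13 and -0.12 on the wild type arrays and 0.10, 0.09 and 0.13 on the deletion arrays. The members were not scaled, so RRN3, with a difference of 1.05, weighs more in this profile than any other member. Outside the members, the genes most like this profile were IMP3, RLP24, TRM9, FEX2 and BYE1, with Pearson r of 0.997 to 0.998 over 6 arrays. They rose by 0.67, 0.53, 0.29, 0.88 and 0.61. With 6 arrays in 2 groups such values are set mostly by the genotype, and 700 of 5439 genes had an r above 0.95.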

How the data were processed

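The authors deposited 1 log2 value per probe set for each of 6 Affymetrix yeast arrays. Per the submitters' processing notes, RMA and limma were used; the sources used here give no versions. RMA makes the distributions of arrays alike and would hide a change common to most transcripts. The values were not normalized again.

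Of 10928 probe sets, 7244 had 1 gene symbol, 1 several and 3683 none. Those of 5498 matched the R64 reference table, which also gave gene lengths, chromosomes and neighbours; 1746 did not. The brightest probe set stood for a gene (47 genes had several), which left 5449 genes. The background level is the 95th percentile of the means of the unmatched probe sets.

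The test was limma's (version 3.58.1, R 4.3.3; lmFit and eBayes, two-sided, no covariates), with Benjamini-Hochberg adjustment over all genes at 0.05. All adjusted p-values come from limma. Python 3.11.15, NumPy 2.4.6, pandas 2.3.3 and matplotlib 3.10.9 made the tables and figures. The fit was also run on simulated data with independent noise and few changed genes. Many genes were called here, so that run does not show how the fit behaves on these data. The number of arrays limits the precision.

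The members, lists and naming rule were chosen with earlier results of these data known. The rule names the members, NPL3, BAR1, marker genes, all genes of lists of up to 7, the 2 largest called rises and falls of longer lists, and the 5 genes most like the members. The members' neighbours and TOR1 were named after their values were seen. Alternatives were each array left out, a replicate block, other scalings, filters, variance models, array weights, probe set rules and thresholds, and a fit without chromosome I. Same-numbered arrays did not deviate together (r of -0.19 to -0.07), so numbers were not treated as pairs. Promoter motifs were not analysed here.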

Additional observations from a re-analysis of the deposited data

How the results depend on the processing

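Over all genes 3369 were called, and 923 with a fold of at least 1.5. Of the members, 5 were called, 3 at an adjusted p of 0.01 and 1 with a fold of at least 1.5, and all of these were higher. The fits that left out 1 array called 3 to 5 members, with 3 without wild type replicate 3. Members lower numbered 0, and 1 (RPA190) under quantile normalization (limma adjusted p = 0.0433), without the dimmest genes, those in the lowest 0.25 by mean (0.0498), and with a trended and robust variance (0.0244). The members' median difference was 0.131, and 0.119 under quantile normalization, 0.096 without the dimmest genes, which leaves out RRN7, and 0.1204 to 0.1525 when single arrays were left out. With a replicate block 3035 genes and 4 members were called, with 4 higher, 0 lower and a median of 0.131, and RPA43 and RPB5 were no longer called (limma adjusted p = 0.0514 and 0.115).

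Signs turned only among named genes that were not called. Under quantile normalization RPA14 was at -0.011, BAR1 at 0.013 and STE3 at -0.107. RPO26 was at -0.018 with array weights and RPB2 at 0.0059 under median centring. When single arrays were left out, RPA135 ranged from -0.027 to 0.056, RPA14 from -0.0097 to 0.072, BAR1 from -0.183 to 0.065, RPO26 from -0.024 to 0.038, RPB2 from -0.041 to 0.043, RPB3 from -0.029 to 0.0019 and STE3 from -0.0017 to 0.136. Of 60 genes named by the rule, 46 were called, 36 of these in every alternative fit at 0.05 that tested them. The counts of the lists beside the members were recomputed under alternatives added after the data were seen.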

Other observations

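The genes next to the members in the order of the reference table, taken among tested genes, moved both ways. Of 18 such neighbours that are not members, 6 rose, 4 fell and 8 were not called. Over all genes, 32.9% rose and 28.9% fell. Both neighbours of RRN3 on chromosome XI rose, YPK1, a protein kinase gene, by 0.48 (limma adjusted p = 0.000175) and SSH4 by 0.36 (limma adjusted p = 0.00949), beside 1.05 for RRN3. RPA43 and RPA190 are neighbours of each other, with differences of 0.23 and -0.13. UBC11, on the other side of RPA43, rose by 1.16 (limma adjusted p = 1.34e-05). RPA49 and RPA34, which rose by 0.17 and differed by 0.09, stand next to VPS75 and SMT1, which fell by 0.84 (limma adjusted p = 1.11e-05) and fell by 1.22 (limma adjusted p = 5.63e-06).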
